A study of Mus musculus with 6 samples.

Results

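The expression of 10 genes of MHC class II presentation was followed in mouse immature dendritic cells with and without fluid shear stress (FSS). They were chosen by symbol (H2-Aa, H2-Ab1, H2-Eb1, H2-DMa, H2-DMb1, H2-DMb2, Cd74, Ciita, Ctss and Ifi30), and all 10 were found among the 22899 genes of the expression table. The FSS cells had been under 10 dyn/cm2 of FSS for 3 h in a cone-plate device, in which a turning cone drags the medium over the dish, and the controls were cultured statically. Both groups started as marrow of male C57BL/6 mice aged 7 weeks, kept 7 days in GM-CSF at 20 ng/ml plus IL-4 at 10 ng/ml, and then selected for CD11c, the integrin subunit encoded by Itgax. Each group held 3 libraries, numbered 1 to 3. The labels do not say that the libraries came from separate animals or cultures, so a p-value here measures the spread among these 6 libraries alone, part or all of which may be technical.

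MHC class II molecules are pairs of an alpha and a beta chain that show peptides from endosomes to CD4+ T cells. The chains assemble on the invariant chain (Cd74), which endosomal proteases trim to a short fragment that the exchange factor H2-DM then replaces with antigen peptide. Transcription of the genes for the chains, Cd74 and H2-DM depends on the coactivator CIITA, which binds factors sitting on a shared promoter module of an X box and a Y box. Dendritic cells are the best known presenters on class II, and immature ones keep much of it inside the cell.

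The stretches of promoter that carry this module are shown because class II genes are the best known users of it. RefSeq windows of assembly GRCm38.p6, from 250 bases before to 50 bases after each annotated start, were present for 7 of the 10 genes. The windows were searched on both strands for CTNGNAAC, an X-type motif, and ATTGG, a Y-type motif, where N is any base; the letters were picked with the class II promoters in view. Capitals mark the matches, each stretch is written 5′ to 3′ on the strand of its gene, and CTNGNAAC precedes ATTGG by 25 to 28 bases wherever both are marked.
H2-Aa, chr17:34287855-34287919, minus strand: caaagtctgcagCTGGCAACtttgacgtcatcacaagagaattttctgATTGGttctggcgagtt
H2-Eb1, chr17:34305761-34305824, plus strand: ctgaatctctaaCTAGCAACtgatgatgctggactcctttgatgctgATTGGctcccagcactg
H2-DMb1, chr17:34153082-34153146, plus strand: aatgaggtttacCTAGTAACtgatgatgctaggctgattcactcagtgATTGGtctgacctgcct
H2-DMb2, chr17:34145111-34145175, plus strand: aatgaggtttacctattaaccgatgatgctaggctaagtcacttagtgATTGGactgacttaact
H2-Ob, chr17:34238803-34238864, plus strand: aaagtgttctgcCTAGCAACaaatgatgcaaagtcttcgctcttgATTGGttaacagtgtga
Over all 32851 windows, 13.2% held CTNGNAAC, 37.4% held ATTGG, and 0.429% held the first followed on the same strand by the second within 40 bases. On the strand of the gene, as in the stretches shown, it was 0.198%. H2-Aa, H2-Eb1 and H2-DMb1 held that arrangement, as did H2-Ob, which encodes a chain of the H2-DM inhibitor H2-DO. H2-DMb2 lacked the letters of the X-type motif in this window, although its stretch matched that of its neighbour H2-DMb1 at 56 of 65 bases. The windows of H2-DMa, Ctss and Ifi30 did not hold the arrangement either. H2-Oa, which encodes the other chain of H2-DO, and H2-Eb2 were searched too and lacked it on the strand of the gene. A match is a description of letters and not of a bound site.

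Before the comparison, the cells were checked against marker genes. Itgax stood at 397, 445 and 502 FPKM in FSS libraries 1 to 3 and at 502, 509 and 599 FPKM in static libraries 1 to 3, where FPKM are fragments mapped to a gene, divided by its transcript length and by all mapped fragments. Of 14 dendritic cell markers, 12 reached 1 FPKM in at least 3 libraries; Flt3 and Cd209a did not, at no more than 0.67 FPKM. Markers of B cells, the other main class II-bearing cells of marrow, summed to 3.33 to 7.39 FPKM in FSS libraries and 3.71 to 9.61 FPKM in static ones over 8 genes, with Pax5 at 0.88 FPKM or less and Cd79b the 1 gene that reached 1 FPKM in at least 3 libraries. The 6 markers of plasmacytoid dendritic cells summed to 73.4 to 92.7 FPKM in FSS libraries and 98.0 to 108 FPKM in static ones, nearly all of it Bst2, which many other cells make; their defining marker Siglech stood at 0.03 FPKM or less, and Cox6a2 was highest in the libraries numbered 3 (4.66 FPKM under FSS and 3.83 FPKM static). The dendritic cell markers summed to 4545, 5854 and 6604 FPKM in FSS libraries 1 to 3 and to 8493, 8469.8 and 8599.8 FPKM in static libraries 1 to 3. The chemokine genes Ccl17 and Ccl22 made up 71.8% to 78.1% of it. Without them the other 12 markers, Irf4 among them, summed to 1113, 1367 and 1742 FPKM in FSS libraries 1 to 3 and to 1876, 1852 and 2426 FPKM in static libraries 1 to 3. Both sums were lower in every FSS library than in any static one, and their part in the results below was not tested. For the sum of 12 markers, the separation rested on Irf4. It stood at 88.3, 123.5 and 107 FPKM in FSS libraries 1 to 3 and 431, 326 and 407 FPKM in static ones. With Irf4 taken out too, FSS library 3 stood above static libraries 1 and 2, so the groups overlapped. All 12 macrophage markers reached 1 FPKM, and their sum was 7630, 5524 and 4080.2 FPKM in FSS libraries 1 to 3 and 6797, 5059 and 3733 FPKM in static libraries 1 to 3, mostly Lyz2, which encodes lysozyme and is also made by dendritic cells grown from marrow. Lyz2 alone set the order of that sum, which was highest in both libraries numbered 1 and lowest in both numbered 3. The other 11 markers summed to 784, 618 and 714 FPKM in FSS libraries 1 to 3 and to 658, 536 and 644 FPKM in static libraries 1 to 3, lowest in both numbered 2. For the libraries numbered 3, deviations from the group means over the genes tested ran against those of numbers 1 and 2 of the other group (Pearson correlations of -0.78 to -0.54). Between numbers 1 and 2 the correlations were 0.28 and 0.22. The 3 deviations of a group sum to 0 for each gene, so part of the negative values is built in. No read counts came with the values, so depth is unknown. Fewer cells of a type and less RNA per cell cannot be told apart in such bulk samples.

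None of the 10 genes passed the test for a difference between FSS and static cells, and the ratios of group means lay between 0.879 (H2-DMb1) and 1.09 (Ifi30). For each gene, limma on log2(FPKM + 1) compared the groups, with p-values adjusted by Benjamini-Hochberg over the 10899 genes that reached 1 FPKM in at least 3 libraries. Of all genes tested, 1.72% passed an adjusted p of 0.05 (93 higher and 94 lower under FSS), against 0 of the 10 class II genes, and 0 of the 10 had an unadjusted p under 0.05, beside 18.1% of all genes. With the replicate number as a block, 32.9% of all genes passed and again 0 of the 10, with 1 of them, H2-DMb1, at an unadjusted p under 0.05, beside 45.9% of all genes. Scaling libraries by their median ratio left 0 of the 10 past the threshold too, beside 2.05% of all genes without the block (1.33% higher and 0.716% lower) and 35.7% with it. The median difference of the 10 was 0.03 log2, beside -0.12 over all genes tested. With that scaling the median over all genes tested became -0.01 and that of the 10 became 0.15.

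**Figure D1:**
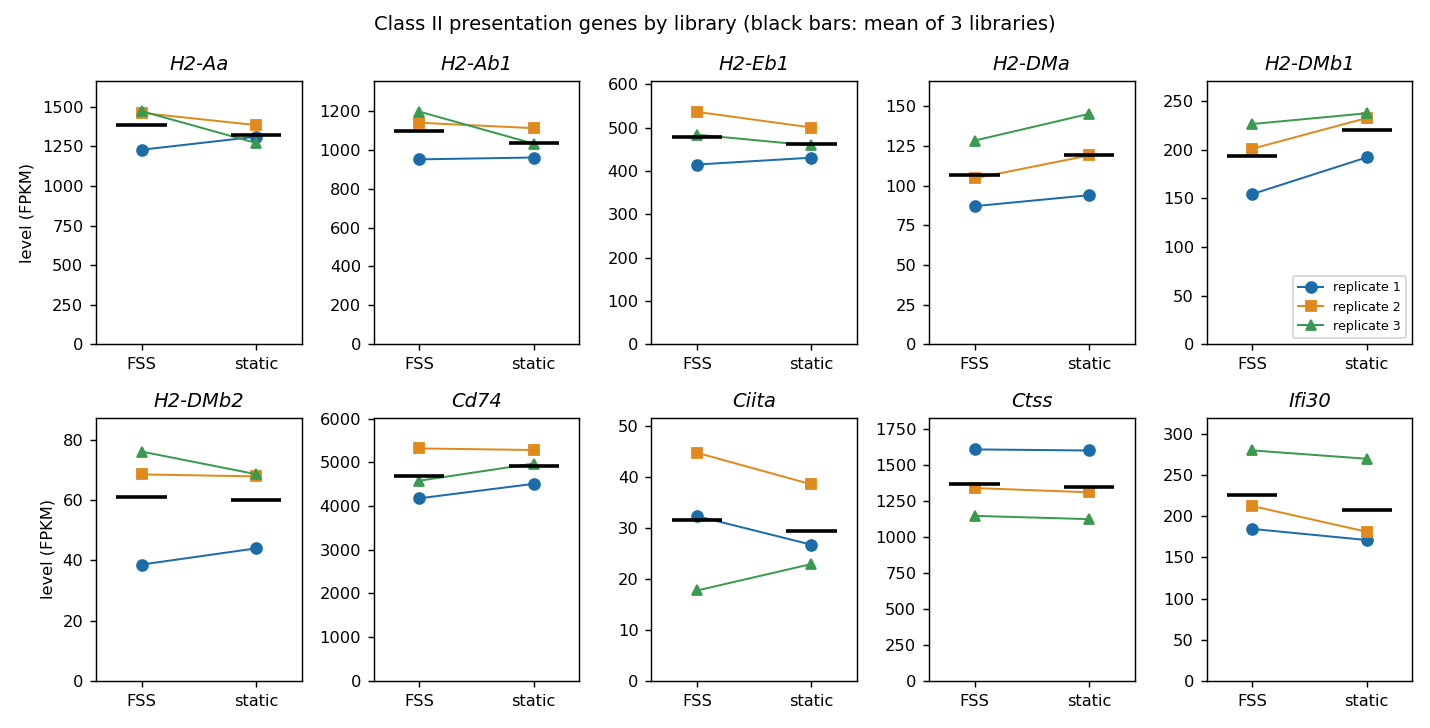
Level in FPKM (vertical axes from 0) of each of the 10 genes in FSS (left) and static (right) libraries. Coloured lines join the libraries of one replicate number, and black bars are means of 3 libraries. In all panels the groups overlap, and for Ctss the lines are nearly flat while the 3 numbers lie apart.

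The alpha chain of I-A, the class II molecule that C57BL/6 mice display, is encoded by H2-Aa. It had 1229, 1461 and 1472 FPKM in FSS libraries 1 to 3, against 1311, 1384 and 1271 FPKM in static libraries 1 to 3. The FSS libraries held both the lowest and the highest value, so the groups overlapped fully. The log2 difference was 0.07 ± 0.15 (SE; 95% interval -0.29 to 0.42; limma adjusted p = 0.885). Its partner H2-Ab1, the I-A beta chain, had 951, 1139.7 and 1197 FPKM under FSS and 961, 1112 and 1032 FPKM in static cells. Both groups were lowest in the library numbered 1, and the log2 difference was 0.08 ± 0.16 (SE; 95% interval -0.29 to 0.45; limma adjusted p = 0.865). The ratio of H2-Aa to H2-Ab1 within a library, which does not depend on how libraries are scaled, was 1.27 ± 0.03 under FSS and 1.28 ± 0.07 in static cells (SD, n = 3 each; exact permutation p = 0.8, two-sided).

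H2-Eb1 encodes the beta chain of I-E, a second class II molecule that C57BL/6 mice do not display because the gene of its alpha chain is disabled in this strain. The RNA was still abundant, at 415, 536 and 484 FPKM under FSS and 430.4, 500.1 and 459 FPKM in static cells. Library 2 was highest and library 1 lowest in each group, and FSS minus static was 0.04 ± 0.17 log2 (SE; limma adjusted p = 0.935). The disabled alpha chain gene, listed as H2-Ea-ps and added here with its values known, had 0.05 FPKM or less in every library, while RNA of the beta chain was present in both groups. H2-Eb2, a related beta chain gene, stood at 1.07 ± 0.24 FPKM under FSS and 0.827 ± 0.115 FPKM in static cells (SD, n = 3 each), too low to be tested. H2-Eb1 relative to H2-Ab1 gave 0.437 ± 0.033 under FSS and 0.447 ± 0.003 in static cells (SD, n = 3 each; exact permutation p = 0.7, two-sided).

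Cd74 encodes the invariant chain, the chaperone that fills the groove of new class II molecules and takes them to endosomes, and it was the most abundant of the 10. FSS libraries 1 to 3 had 4178, 5319 and 4580.3 FPKM, and static libraries 1 to 3 had 4509, 5283 and 4974 FPKM. Library 2 was highest in both groups and the ranges overlapped. The log2 difference was -0.07 ± 0.16 (SE; 95% interval -0.43 to 0.29; limma adjusted p = 0.872), and it turned to 0.05 with median-ratio scaling. Set against the sum of H2-Aa, H2-Ab1 and H2-Eb1, Cd74 was lower in FSS than in static cells in 3 of 3 pairs. The ratio was 1.61, 1.70 and 1.45 in FSS libraries 1 to 3, against 1.67, 1.76 and 1.80 in static libraries 1 to 3. The groups overlapped, and the exact permutation test gave p = 0.2 (two-sided; the smallest p that 3 against 3 libraries allow is 0.1). Adjusted over the 10 ratios and sums tested this way, every p was 1.0.

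H2-DM, the exchange factor, is built from the chains of H2-DMa and of H2-DMb1 or H2-DMb2. H2-DMa had 87.1, 105 and 128 FPKM under FSS and 94.0, 119 and 145 FPKM in static cells. H2-DMb1 had 154, 201 and 226 FPKM under FSS and 192, 233 and 237 FPKM in static cells. In each of these genes the FSS value was below the static one in all 3 pairs, the library numbered 1 was lowest in both groups, and the groups overlapped. Of all genes tested, 47.3% were lower in all 3 pairs, against 2 of the 10 class II genes. The log2 differences were -0.16 ± 0.22 for H2-DMa and -0.20 ± 0.20 for H2-DMb1 (SE; limma adjusted p = 0.795 and 0.682). With 1 library left out they ran from -0.32 (without static library 1) to -0.0057 (without static library 3) for H2-DMa, and from -0.32 (without FSS library 3) to -0.042 (without FSS library 1) for H2-DMb1. With the block, the limma adjusted p of H2-DMb1 was 0.0938, the lowest of the 10 genes. Median-ratio scaling left -0.03 for H2-DMa and -0.07 for H2-DMb1, and when the scaling was computed over the tested genes alone H2-DMa turned to 0.003.

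H2-DMb2 had 38.6, 68.5 and 76.1 FPKM under FSS and 44.0, 67.85 and 68.6 FPKM in static cells, so both libraries numbered 1 stood below the other 4. The log2 difference was -0.01 ± 0.30 (SE; limma adjusted p = 0.994), and its sign turned with scaling. H2-DMb1 and H2-DMb2 are near copies, and reads can be divided between them only uncertainly. Summed over the 3 H2-DM genes and set against the sum of H2-Aa, H2-Ab1 and H2-Eb1, the ratio was 0.108, 0.119 and 0.137 in FSS libraries 1 to 3 and 0.122, 0.140 and 0.163 in static libraries 1 to 3. Each FSS library lay below the static library of its number, by 0.18, 0.23 and 0.26 on the log2 scale, while the groups overlapped (exact permutation p = 0.2, two-sided, adjusted p = 1.0). The 2 genes of the H2-DM inhibitor were low. H2-Oa stood at 12.01 ± 1.45 FPKM under FSS and 13.6 ± 1.04 FPKM in static cells, and H2-Ob at 3.40 ± 1.19 FPKM under FSS and 3.28 ± 1.01 FPKM in static cells (SD, n = 3 each; limma adjusted p = 0.668 and 0.963). Their summed ratio to H2-DM was 0.0438 ± 0.0105 under FSS and 0.0424 ± 0.0042 in static cells (SD, n = 3 each; exact permutation p = 1.0, two-sided).

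**Figure D2:**
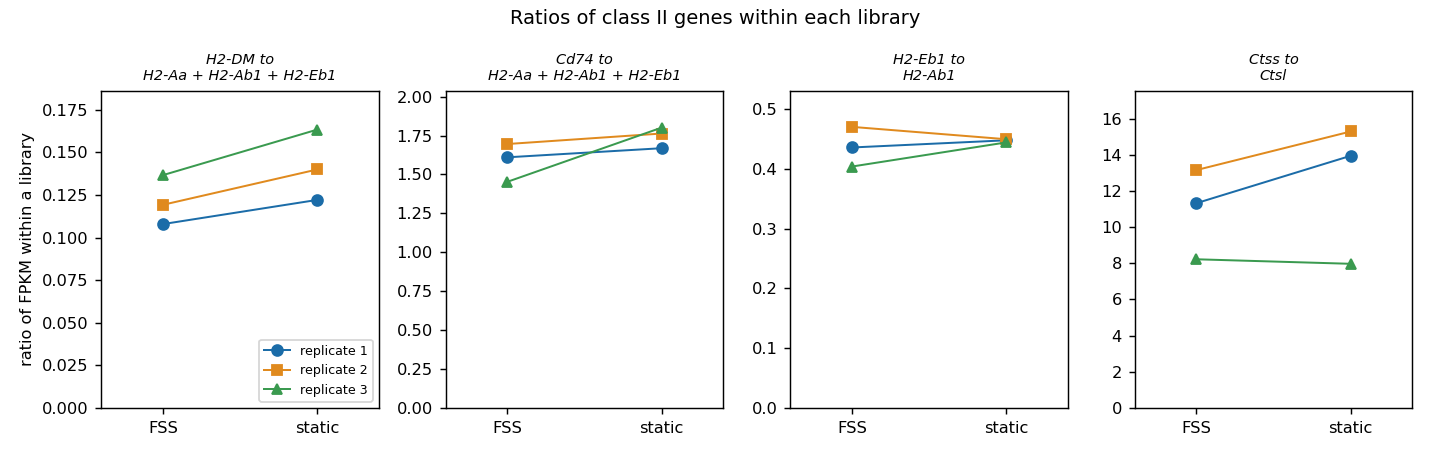
Ratios of FPKM within each library (vertical axes from 0) for FSS (left) and static (right), lines joining libraries of one replicate number. H2-DM relative to the summed peptide-binding chains is below its static partner in each of the 3 pairs, from 0.108 against 0.122 to 0.137 against 0.163, while H2-Eb1 to H2-Ab1 stays between 0.404 and 0.470.

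Ctss encodes cathepsin S, the protease that makes the last cuts in the invariant chain in dendritic cells. It had 1611, 1342 and 1149 FPKM in FSS libraries 1 to 3, against 1603, 1312 and 1126 FPKM in static libraries 1 to 3. Each FSS library lay within a few percent of the static library of the same number, at ratios of 1.005, 1.02 and 1.02, while library 1 was highest and library 3 lowest in both groups. The log2 difference was 0.02 ± 0.20 (SE; limma adjusted p = 0.968), and its 95% interval narrowed to between -0.10 and 0.14 with the block. Relative to Ctsl, the gene of cathepsin L, which does the same work in thymic epithelium, Ctss gave ratios of 11.3, 13.2 and 8.22 under FSS and 13.95, 15.3 and 7.97 in static cells (exact permutation p = 0.6, two-sided).

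Ifi30 encodes GILT, the endosomal reductase that opens disulfide bonds of antigens. Its level was 185, 212 and 280.1 FPKM under FSS and 171, 181 and 269.95 FPKM in static cells, with library 3 highest in both groups. All 3 pairs were higher under FSS, as were those of Ctss, beside 17.1% of all genes tested. The log2 difference of 0.13 ± 0.24 (SE; limma adjusted p = 0.849) was the highest of the 10 and did not pass, also with the block (limma adjusted p = 0.218). Only with the block and a median-ratio scaling over the tested genes did Ifi30 pass (log2 difference 0.29, limma adjusted p = 0.0398); with the scaling over all genes above 0 in every library the limma adjusted p was 0.0727.

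Ciita, the coactivator gene, was the lowest of the 10 and the most variable between libraries. FSS libraries 1 to 3 had 32.3, 44.7 and 17.7 FPKM, and static libraries 1 to 3 had 26.7, 38.5 and 22.9 FPKM. Library 2 was highest and library 3 lowest in each group, and the FSS group held both extremes. The pairs pointed in different ways, at log2 differences of 0.27, 0.21 and -0.35, and the mean of 0.04 ± 0.34 (SE; limma adjusted p = 0.967) had the widest interval of the 10 genes, -0.75 to 0.83. Without the libraries numbered 3 the log2 difference was 0.24 (limma adjusted p = 0.53). The highest library held 2.52 times the lowest for Ciita, against 1.20 times for H2-Aa. A value per gene does not separate the alternative Ciita promoters that dendritic cells, B cells and interferon-treated cells use.

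**Figure D3:**
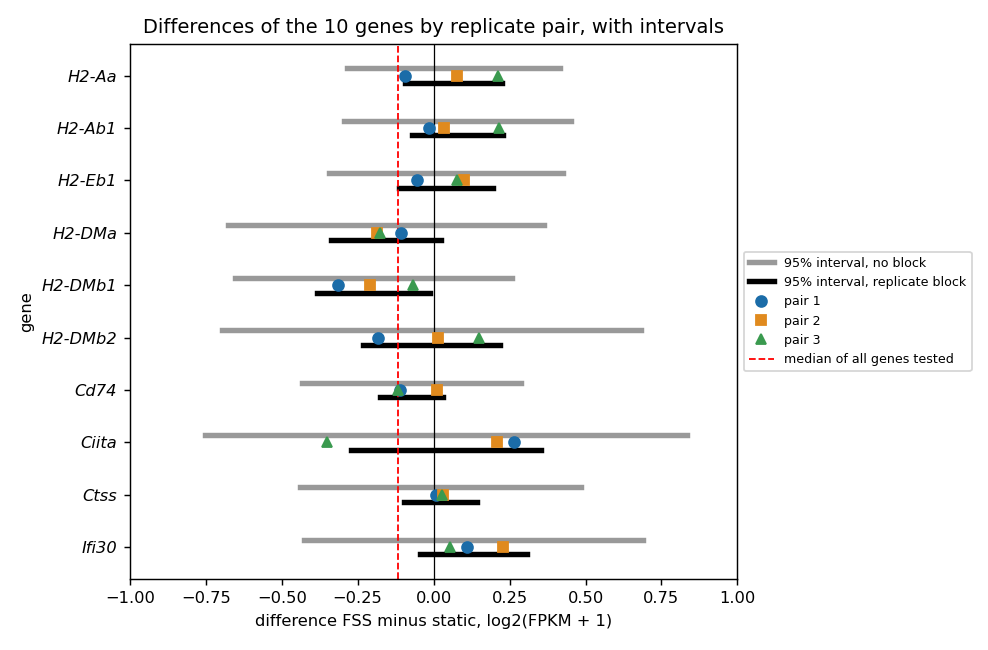
Difference FSS minus static on the log2(FPKM + 1) scale for each of the 10 genes. Symbols are the 3 replicate pairs, grey and black lines the 95% intervals without and with the replicate block, and the dashed line the median of all genes tested at -0.12. Every grey interval crosses 0 and lies within 1 log2 of it; with the block, H2-DMb1 is the one interval that leaves 0 out (-0.38 to -0.01).

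The intervals give the precision of the unscaled differences, measured on the spread among these 6 libraries alone. Median-ratio scaling moved the median difference of the 10 from 0.03 to 0.15 log2, and its intervals are not given. In 10 of 10 genes the 95% interval lay within 1 log2 of 0, meaning less than a 2-fold change either way, as it did for 78.8% of all genes tested. With the block the interval lay within 0.5 log2 of 0 in 10 of 10, beside 54.8% of all genes tested. The narrowest without the block was that of H2-Aa. No gene of the 10 had groups that did not overlap, beside 25.5% of all genes tested (5.1% higher and 20.4% lower under FSS). Leaving out the libraries numbered 3 gave differences of -0.26 (H2-DMb1) to 0.24 (Ciita), and again none passed. The 10 genes together summed to 8880.4, 10429.7 and 9611 FPKM in FSS libraries 1 to 3 and 9343, 10231 and 9606 FPKM in static libraries 1 to 3. As a share of all FPKM, the I-A and I-E chains and Cd74 made up 1.80% ± 0.19 under FSS and 1.74% ± 0.15 in static cells (SD, n = 3 each; exact permutation p = 0.7, two-sided).

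Levels of the 10 genes spread over a wide range. Averaged over all 6 libraries, Cd74 led at 4807 FPKM and ranked 5 to 9 among the 18071 genes with values, followed by Ctss (1357 FPKM), H2-Aa (1355 FPKM), H2-Ab1 (1065 FPKM), H2-Eb1 (471 FPKM), Ifi30 (217 FPKM), H2-DMb1 (207 FPKM), H2-DMa (113 FPKM), H2-DMb2 (60.6 FPKM) and Ciita (30.5 FPKM). Values are per transcript length, so they can be set side by side. The ranges over libraries overlapped between Ctss and H2-Aa, between Ctss and H2-Ab1, between Ifi30 and H2-DMb1, and between H2-DMb2 and Ciita. Ctss stood above H2-Ab1 in every library except FSS library 3 (1149 against 1197 FPKM). Within libraries, Ctss stood above H2-Aa in 2 of 6 and Ifi30 above H2-DMb1 in 4 of 6, so neither order held throughout, while H2-DMb2 stood above Ciita in 6 of 6. By group means, H2-Aa stood above Ctss and Ifi30 above H2-DMb1 under FSS, and each the other way in static cells. H2-Aa ranked 24 to 30 and Ciita 1581 to 3171. The coactivator was thus present at a small fraction of the RNA level of the chains whose genes it activates, in both groups.

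Most of the spread in these genes went with the replicate number. An F-test of the number in the limma model with group and number passed for 8 of the 10 genes, beside 49.7% of all genes tested. H2-Aa and H2-Ab1 did not pass (limma adjusted p = 0.26 and 0.0623). The strongest was Ctss (F = 31.7, limma adjusted p = 0.00299), where the number held 99.6% of the sum of squares and the group 0.306%. In 10 of 10 genes the number held a larger share than the group or the rest, with a median of 89.7% for the number and 6.88% for the group. The number takes more values than the group, so it takes up more of any spread even where neither matters. Over all genes tested the number held the largest share in 63.8%, with medians of 62.5% for the number and 22.0% for the group. With median-ratio scaling 5 of the 10 passed, beside 56.8% of all genes tested, and H2-Eb1, Cd74 and Ctss did not (limma adjusted p = 0.249, 0.444 and 0.0718).

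**Figure D4:**
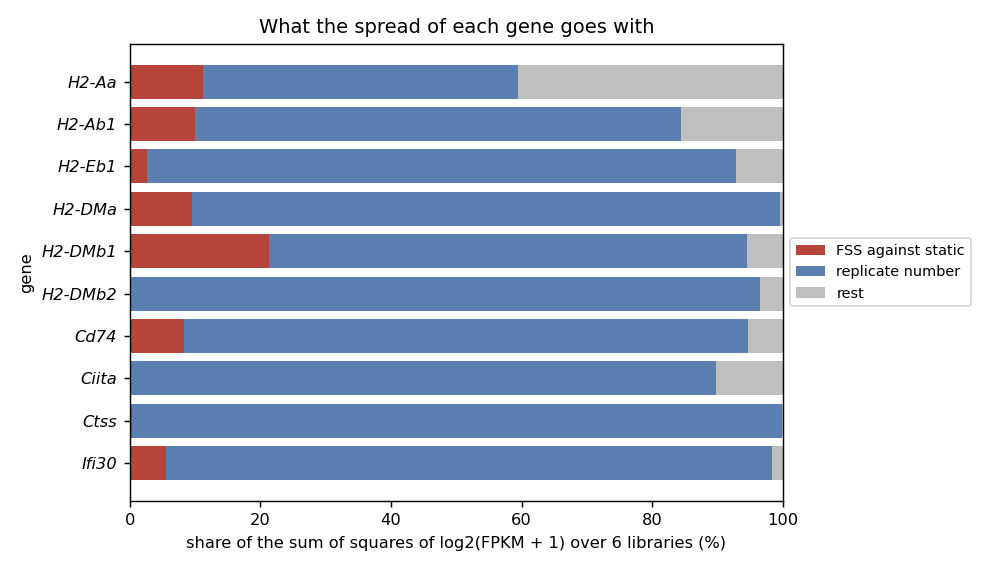
Share of the sum of squares of log2(FPKM + 1) over the 6 libraries, in percent, that goes with FSS against static (red), with the replicate number (blue) and with neither (grey), for each of the 10 genes. The blue share is the largest in every bar, from 48.3% for H2-Aa to 99.6% for Ctss.

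In unscaled FPKM, the genes did not follow the numbers in 1 way. Ifi30 and the 3 H2-DM genes were highest in the libraries numbered 3 of both groups, Ctss was highest in those numbered 1, and H2-Eb1, Cd74 and Ciita in those numbered 2. H2-Ab1, H2-Eb1, Cd74, Ifi30 and the 3 H2-DM genes were lowest in both libraries numbered 1. Some of these orders depend on the scaling, as the median-ratio factor was 0.839 for FSS library 3 and 1.068 for FSS library 2. Divided by the factors, Cd74 and H2-Eb1 were highest in the libraries numbered 3 of both groups. Ctss was then no longer lowest in FSS library 3, and Ifi30 no longer lowest in static library 1. Ciita stayed highest in those numbered 2 and Ctss in those numbered 1. In unscaled FPKM, Lyz2 had the same order of numbers as Ctss in both groups and the other 11 macrophage markers together did not. The part of these markers in the result was not tested. Summed neutrophil markers (258, 400.4 and 434 FPKM in FSS libraries 1 to 3, and 290.3, 481 and 523 FPKM in static ones) had the same unscaled order as Ifi30 and the 3 H2-DM genes. Of these markers, S100a9, Ngp and Ltf alone had that order in both groups. S100a8 (98.9, 156 and 146 FPKM under FSS and 154, 243 and 240 FPKM static) and Mpo were highest in those numbered 2. The dendritic cell markers Mgl2 and Clec10a had the order of the sum as well. The part of these markers was not tested either. Among 8652 other genes with a mean log2(FPKM + 1) of at least 2, leaving out predicted genes and pseudogenes, the 5 whose values most resembled the mean of H2-Aa, H2-Ab1, H2-Eb1 and Cd74 over the 6 libraries were Ifitm2, Isca1, Tnni2, Adra2a and Slamf8 (Pearson 0.95 to 0.98, as a description). The 6 points share replicate numbers and, within a library, the same scaling. Of the other members, H2-DMb2 resembled that mean most (0.88) and Ctss ran against it (-0.61).

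Around the 10 genes, 41 others of the pathway were followed, in lists by role, and 39 were tested. Without the block 2 fell and none rose, beside 0.862% of all genes tested lower and 0.853% higher. With the block 7 fell and 4 rose, beside 25.1% and 7.73% of all genes tested. Blocked and scaled by median ratio, 5 fell and 5 rose, beside 19.2% and 16.5%. The median difference of the 39 was -0.11 log2, near that of all genes tested. The groups did not overlap in 9 of the 39, beside 25.5% of all genes tested.

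Regulators of Ciita transcription held both falls. Irf4, a transcription factor of dendritic cell and B cell development, had 88.3, 123.5 and 107 FPKM under FSS, against 431, 326 and 407 FPKM in static cells. The groups were far apart, at a log2 difference of -1.86 ± 0.20 and a ratio of means of 0.274 (SE; limma adjusted p = 0.0133). Socs1, a feedback inhibitor of cytokine signalling, had 37.7, 60.1 and 53.05 FPKM under FSS, against 147, 143 and 235 FPKM in static cells, and every FSS library lay below every static one (log2 difference -1.77 ± 0.26, SE; ratio of means 0.287; limma adjusted p = 0.0287). The call for Irf4 was lost without FSS library 1, FSS library 2 or static library 1 (limma adjusted p = 0.0506, 0.0574 and 0.0667). The call for Socs1 was lost without any library other than FSS library 3 (limma adjusted p = 0.0644 to 0.128). Both passed with the block (limma adjusted p = 0.000623 and 0.000817).

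Irf1, a factor that carries the interferon signal to a Ciita promoter, had 117, 94.96 and 95.1 FPKM under FSS and 41.5, 32.0 and 76.0 FPKM in static cells, a rise with the block (limma adjusted p = 0.00862 with the number as a block, 0.114 otherwise). All FSS libraries were above all static ones, and the third pair, at a log2 difference of 0.32, moved less than the other pairs (1.47 and 1.54). Irf8, Stat6, Spi1 and Prdm1 did not pass in either fit. Spi1, which encodes PU.1, gave 203 ± 4.81 FPKM under FSS and 223 ± 20.1 FPKM in static cells (SD, n = 3 each). None of 7 genes of the factors on the X and Y boxes (Rfx5, Rfxank, Rfxap, Nfya, Nfyb, Nfyc and Creb1) passed without or with the block, though Creb1 did blocked and scaled (log2 difference 0.24, limma adjusted p = 0.0491). Of all genes tested, 1.72% passed without the block, 32.9% with it, and 35.7% blocked and scaled. Nfyc, a subunit of the Y-box factor NF-Y, was the one of these 7 whose groups did not overlap, at 16.0 ± 0.91 FPKM under FSS and 19.4 ± 0.59 FPKM in static cells (SD, n = 3 each; limma adjusted p = 0.394 unblocked and 0.0575 blocked). Of all genes tested, 20.4% were lower under FSS without overlap.

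Of the 10 endosomal protease and inhibitor genes, 0 passed without the block, beside 1.72% of all genes tested. With it 2 rose, 2 fell and 6 did not pass, beside 7.73% of all genes tested higher and 25.1% lower. Ctsd, the gene of cathepsin D, had 2196, 2002 and 3184 FPKM under FSS and 1867, 1692 and 2646 FPKM in static cells. The pairs differed by nearly the same log2 amount, 0.23, 0.24 and 0.27, while both libraries numbered 3 were highest, and the gene rose with the block (limma adjusted p = 0.00707 with the number as a block, 0.673 otherwise). Ctsb, the gene of cathepsin B, rose with the block as well, at 1.16 times the static mean (limma adjusted p = 0.0179 with the number as a block, 0.715 otherwise). Cst3, which encodes cystatin C, an inhibitor of cathepsins, had 1123, 1310.1 and 1500.1 FPKM under FSS and 1571, 1582 and 1829 FPKM in static cells. All FSS libraries were below all static ones, and it fell with the block (limma adjusted p = 0.00567 with the number as a block, 0.333 otherwise). Blocked and scaled, Ctsb, Ctsd and Cst3 did not pass (limma adjusted p = 0.0552, 0.054 and 0.217), so these calls depend on the scaling. The log2 differences of Ctsb and Ctsd were larger there (0.34 and 0.37, against 0.22 and 0.25 unscaled), and both passed with the block and the scaling over tested genes (limma adjusted p = 0.0327 and 0.0333). Ctsl rose blocked and scaled (log2 difference 0.30, limma adjusted p = 0.0298, against 0.169 blocked but unscaled). Sppl2a, the intramembrane protease that clears the last fragment of the invariant chain, had 40.5, 43.95 and 26.5 FPKM under FSS and 67.7, 58.0 and 44.55 FPKM in static cells, and fell with the block with or without the scaling (limma adjusted p = 0.00421 and 0.00473, against 0.239 without the block).

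Among 13 genes of turnover and surface organisation, 12 were tested and 0 passed without the block, beside 1.72% of all genes tested. With it 1 rose and 2 fell, beside 7.73% of all genes tested higher and 25.1% lower. Marchf1 fell with the block. It encodes the ubiquitin ligase that marks class II molecules for removal from the surface of immature dendritic cells. FSS libraries 1 to 3 had 17.3, 13.1 and 8.77 FPKM and static libraries 1 to 3 had 36.4, 23.9 and 14.8 FPKM. The FSS library was the lower one in each pair, at log2 differences of -1.03, -0.82 and -0.69, though the groups overlapped (limma adjusted p = 0.255 unblocked, 0.00186 blocked, and 0.00108 blocked and scaled). The tetraspanin gene Cd53 fell with the block (limma adjusted p = 0.0168, and 0.163 with the block and scaling), and Cd300a, an inhibitory receptor of myeloid cells, rose with it (limma adjusted p = 0.0444). Cd83, which protects class II molecules from Marchf1, gave 94.0 ± 19.4 FPKM under FSS and 83.2 ± 18.7 FPKM in static cells (SD, n = 3 each; limma adjusted p = 0.777). Lag3, a class II ligand that T cells use, was too low to be tested in these cells, at 1.13 ± 0.47 FPKM under FSS and 0.82 ± 0.35 FPKM in static cells (SD, n = 3 each).

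**Figure D5:**
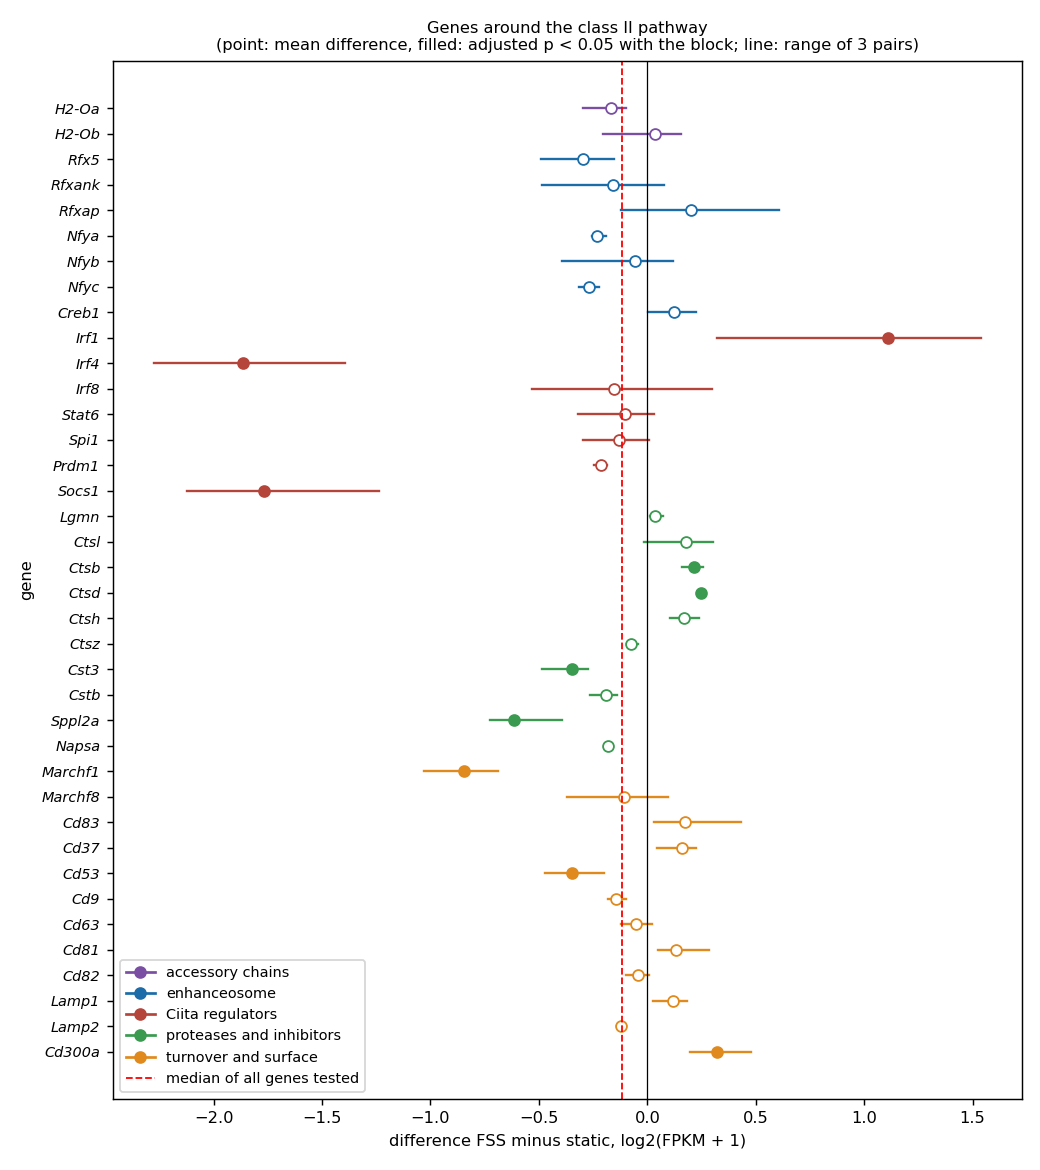
Difference FSS minus static on the log2(FPKM + 1) scale for 38 of the 39 tested genes around the class II pathway, coloured by list. Points are mean differences, filled where the adjusted p is under 0.05 with the replicate block, lines span the 3 pairs, and the dashed line is the median of all genes tested. Irf4 (-1.86) and Socs1 (-1.77) lie far to the left and Irf1 (1.11) to the right, while the remaining genes shown lie within 1 log2 of 0.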

How the data were processed

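RNA of 6 libraries, 3 under FSS and 3 static, was grouped by sample title; replicate numbers come from there too. The authors deposited values that the file headers call expression, read here as FPKM by inference. Their sums differ (413898 to 470596) and, multiplied by transcript length, reach 0.552 to 0.609 (median transcripts) or 1.14 to 1.28 (longest) of the fixed total that FPKM imply. HISAT and Bowtie2 are named in the submitters' processing notes. Quantifier, build, annotation and strand were not given in the sources used here. Low values showed no whole-read steps. The per-sample files held the series table's values. Blank in every library were 4828 genes, and 26 symbols turned into dates were restored by gene ID.

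Of the rest, genes with at least 1 FPKM in at least 3 libraries were fitted on log2(FPKM + 1), a scale that understates changes of low genes. The fit was limma 3.58.1 (variance trend, two-sided) in R 4.3.3. Simulated data served to check the code, and the power to find small changes is not given. Ratios had exact permutation tests over the 6 libraries, with sign-flip tests within replicate pairs as an alternative. Same-numbered libraries deviated together (Pearson 0.79, 0.66 and 0.87 for numbers 1 to 3), so the numbers were taken to pair the samples, from the data and not the labels. All 10 members were named whatever their result, as were pathway genes past the test in either fit or listed under 1 FPKM; H2-Oa, H2-Ob, Spi1, Nfyc and Cd83 were described with their values known, and 1 pathway gene counted in the list is not reported here. Members and lists were chosen with earlier results of these data known. Alternatives were pseudocount, filter, threshold, scaling, block and each library left out; leaving out both libraries numbered 3 and the scaling over tested genes were added after seeing the data.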

Additional observations from a re-analysis of the deposited data

How the results depend on the processing

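Counts of calls moved with the processing, while the 10 class II genes gave 0 calls in all settings but 1, the replicate block with scaling over tested genes, which called 1 of them higher (Ifi30). Over all genes, 93 were higher and 94 lower under FSS. Without the filter these were 14 and 7, at a threshold of 0.01 they were 4 and 1, and with totals made equal 45 were lower. With the replicate block they were 842 and 2739, with median-ratio scaling 145 were higher, and with both they were 1800 and 2096. Scaling over the tested genes alone gave 158 higher, and 2092 higher and 1829 lower with the block. Without both libraries numbered 3 they were 402 and 373, and leaving out 1 library gave 3 to 291 higher and 0 to 176 lower, lowest without static library 1 and highest without FSS library 3. The block alone changed no call of the 10 genes.

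The pathway list, with 0 higher and 2 lower, had 4 and 7 with the block, 5 and 5 with block and median-ratio scaling, and 10 and 5 with block and scaling over tested genes. It had 1 lower without the filter, 0 lower at 0.01, 1 higher without both libraries numbered 3, and 0 higher and 0 to 2 lower with 1 library left out. Of the 8 class II genes that differed between replicate numbers, 5 did so after median-ratio scaling, beside 56.8% of all genes tested, and 6 to 9 genes did with 1 library left out, beside 39% to 59.4%.

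Signs turned where differences were small. With median-ratio scaling, blocked or not, H2-DMb2 was 0.11 and Cd74 0.050 log2, and over tested genes they were 0.15 and 0.089 and H2-DMa 0.0034. With totals made equal H2-DMb2 was 0.058, and H2-Aa was -0.0077 without both libraries numbered 3. Leaving out 1 library at a time gave 0.020 to 0.15 for H2-Aa, -0.045 to 0.14 for H2-Eb1, -0.21 to 0.29 for H2-DMb2, -0.17 to 0.0071 for Cd74, -0.25 to 0.39 for Ciita, -0.10 to 0.16 for Ctss, -0.036 to 0.33 for Ifi30, -0.17 to 0.19 for H2-Ob and -0.11 to 0.81 for Cd300a. For ratios it gave -0.098 to 0.24 for H2-Oa and H2-Ob to H2-DM, -0.092 to 0.018 for H2-Eb1 to H2-Ab1, -0.040 to 0.034 for H2-Aa to H2-Ab1, -0.45 to 0.032 for Ctss to Ctsl, -0.11 to 0.29 for Ctss to Cd74, and -0.18 to 0.44 for Ifi30 to Ctss. The sum of the 10 genes gave -0.073 to 0.043 and the share of all FPKM -0.035 to 0.12. Relative to the peptide-binding chains, H2-DM (-0.33 to -0.12) and Cd74 (-0.19 to -0.077) kept their sign. The causes were not tested. Depth is unknown, and 3 libraries a group limit the precision to the intervals given.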
